A study of Homo sapiens with 4 samples.

Results

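ANGPT1 and ANGPT2, the genes of the secreted angiopoietins 1 and 2, and TIE1, the gene of an endothelial receptor that works with the angiopoietin receptor, were followed after siRNA against SSRP1 in BE(2)C, an established neuroblastoma line of human origin. They are 3 of the 14812 genes that carried a symbol, taken by name, each with its 1 named probe set. They were chosen by their measured change between SSRP1 siRNA and control siRNA on these same arrays, so their differences are described below and are not tested. Cells received either a non-targeting control siRNA (ON-TARGETplus, 2 samples) or siRNA against SSRP1 (2 samples), carried in with the same lipid reagent in both groups, and RNA was isolated 72 hours later. SSRP1 is a subunit of the histone chaperone FACT. A lone SSRP1 siRNA product is listed, so an effect of depletion and an off-target effect of that product cannot be told apart. The labels do not say whether replicates were separate cultures, so the spread behind each p-value may be that of technical repeats.

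Angiopoietin 1 and angiopoietin 2 are ligands of TIE2, the receptor tyrosine kinase encoded by TEK on endothelial cells. Angiopoietin 1, made mainly by the cells around vessels, activates TIE2 and keeps vessels quiescent. Angiopoietin 2, made mainly by endothelial cells, can block or activate TIE2 depending on the setting, and TIE1 pairs with TIE2 and shapes its response. Signalling through AKT restrains the transcription factor FOXO1, of which ANGPT2 is a known target. Tumour cells can also make angiopoietins.

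The promoter table of RefSeq (GRCh38.p14) matched 1 of the 3, TIE1, and ANGPT1 and ANGPT2 did not match. The TIE1 window at chr1:43300732-43301031, plus strand, runs from 250 bases before to 50 bases after the annotated start. It is shown because genes of ETS and KLF factors are among the results below, and capitals mark the matches to the ETS core GGAA (on the other strand it reads TTCC) and to the KLF core CACCC (on the other strand it reads GGGTG).
TIE1: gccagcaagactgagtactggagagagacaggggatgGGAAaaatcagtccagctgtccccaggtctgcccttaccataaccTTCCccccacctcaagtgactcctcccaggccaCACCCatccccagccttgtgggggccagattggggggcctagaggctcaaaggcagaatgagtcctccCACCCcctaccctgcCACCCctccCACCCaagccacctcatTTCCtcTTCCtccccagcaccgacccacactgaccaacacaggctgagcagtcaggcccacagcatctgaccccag
The window held 4 ETS cores over both strands, 2 of them close together at -26 and -20 bases from the start, and 46.0% of 35116 promoters of that length held at least as many. It also held 4 KLF cores, all on the plus strand between -135 and -43 bases from the start, and 4.13% of promoters held at least as many. The ETS and KLF matches shared 0 bases. The FOXO core TAAACA and the GATA site AGATAA, each searched on both strands, had 0 matches in the window, against 12.3% and 10.3% of promoters with a match. These matches describe the letters of the window and are not shown to be bound sites.

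Both angiopoietin genes were higher with SSRP1 siRNA and TIE1 differed little. ANGPT2 was 2.53-fold and ANGPT1 2.02-fold the control level, whereas TIE1 was 1.17-fold. The siRNA target itself read 9.05 and 9.23 with control siRNA and 7.42 and 6.97 with SSRP1 siRNA. Values here are the authors' log2 RMA values per probe set, and since probe sets differ in brightness for reasons other than RNA, amounts of RNA are not compared between genes. In RNA from whole cultures, more cells expressing a gene and more RNA per cell cannot be told apart.

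ANGPT2, the context-dependent ligand, read 6.81 and 6.81 with control siRNA and 8.05 and 8.24 with SSRP1 siRNA. Both SSRP1 siRNA arrays lay high and the groups did not overlap. The group means were 6.81 ± 0.0040 (SD, n = 2) and 8.15 ± 0.13 (SD, n = 2), a log2 change of 1.34 ± 0.11 (SE). The near identity of the control arrays, 0.0057 apart, is closer than the median gap of 0.12 between the same arrays over all genes, and the SE draws on the spread of all genes. Each of the pairings of an SSRP1 siRNA array with a control array gave a change between 1.24 and 1.43. Its change ranked 21 from the top among all genes, and 0.135% of genes had a larger upward change.

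ANGPT1, the agonist ligand, read 4.18 and 4.12 with control siRNA and 5.23 and 5.11 with SSRP1 siRNA. Again both SSRP1 siRNA arrays lay above both controls. The means were 4.15 ± 0.041 (SD, n = 2) and 5.17 ± 0.082 (SD, n = 2), a log2 change of 1.02 ± 0.10 (SE). Over the single pairings of arrays the change ran from 0.93 to 1.10, and 0.297% of genes had a larger upward change.

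TIE1, the receptor, read 2.79 and 2.87 with control siRNA and 3.00 and 3.09 with SSRP1 siRNA. The SSRP1 siRNA arrays were the higher ones, by a narrow margin. The means were 2.83 ± 0.055 (SD, n = 2) and 3.05 ± 0.063 (SD, n = 2), a log2 change of 0.22 ± 0.10 (SE). The lowest SSRP1 siRNA value exceeded the highest control value by 0.14, against gaps of 0.078 and 0.089 between replicate arrays. The control values lay below the lower quartile of all genes on their arrays (3.01 and 3.04), and no detection call was used here, so the part of background in this dim signal was not tested. Of all genes, 12.0% had a larger upward change.

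**Figure D1:**
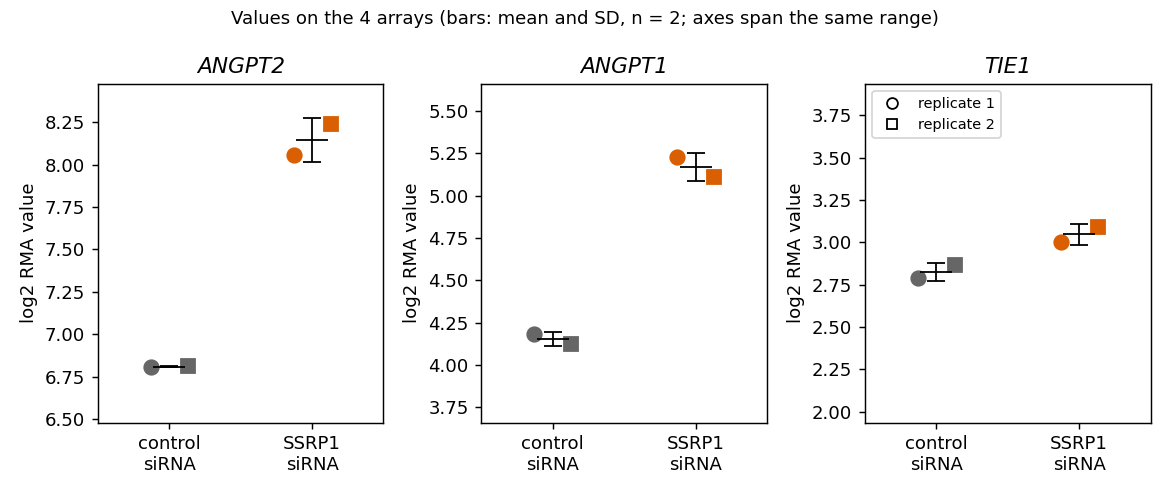
Log2 RMA value of ANGPT2, ANGPT1 and TIE1 on each of the 4 arrays (circles replicate 1, squares replicate 2), with the mean and SD of each group of 2; the vertical axes span equal ranges. ANGPT2 goes from 6.81 on both control arrays to 8.05 and 8.24, ANGPT1 from 4.18 and 4.12 to 5.23 and 5.11, and TIE1 from 2.79 and 2.87 to 3.00 and 3.09.

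The groups did not overlap for any of the 3 genes, all higher with SSRP1 siRNA, beside 21.8% of all genes that were higher without overlap. Nothing is read from that count, since the same contrast had picked the genes. The change of ANGPT2 exceeded that of ANGPT1 by 0.32 on the log2 scale, and over the pairings of arrays the excess ran from 0.14 to 0.50. Which SSRP1 siRNA array read higher differed between the ligands, as ANGPT2 was higher on the second and ANGPT1 on the first. The change of TIE1 was smaller than that of ANGPT2 by 1.12 and than that of ANGPT1 by 0.80.

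**Figure D2:**
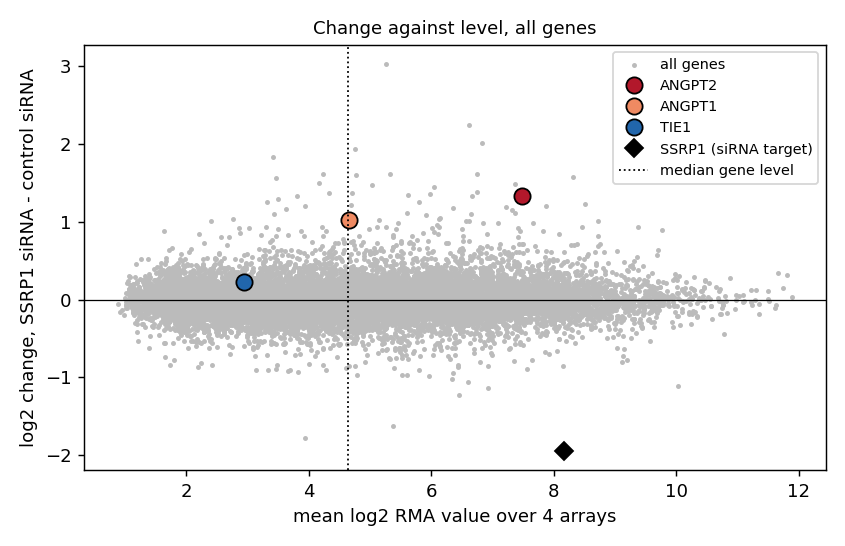
Log2 change (SSRP1 siRNA minus control siRNA) against the mean log2 RMA value over the 4 arrays for all 14812 genes, with ANGPT2, ANGPT1, TIE1 and the siRNA target SSRP1 marked; the dotted line is the median gene level, 4.64. ANGPT2 (1.34) and ANGPT1 (1.02) lie at the upper edge of the cloud, TIE1 (0.22) lies inside it at a dim signal, and SSRP1 (-1.95) is the lowest point.

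In the RefSeq gene table ANGPT2 (gene ID 285) and ANGPT1 (gene ID 284) lie on chromosome 8 and TIE1 (gene ID 7075) on chromosome 1, and the genes around them were read where they were measured. ABRA and RSPO2, the nearest protein-coding genes on the sides of ANGPT1, had log2 changes of 0.02 ± 0.10 (SE, limma adjusted p = 0.957) and -0.30 ± 0.23 (SE, limma adjusted p = 0.661). RSPO2, which encodes a secreted enhancer of Wnt signalling, read 2.78 and 2.91 with control siRNA and 2.19 and 2.90 with SSRP1 siRNA, so its groups overlapped. C1orf210, beside TIE1, had a log2 change of 0.04 ± 0.18 (SE, limma adjusted p = 0.953). MCPH1, which overlaps ANGPT2, and AGPAT5 and LOC128966724 beside it were not analysed here, nor was LOC124902067, which overlaps ANGPT1.

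Patterns most like each of the 3 genes were ranked by the root mean square difference over the 4 arrays after centring each gene on its control mean, a description over 2 groups only. For ANGPT2 these were MBOAT4, the ghrelin acyltransferase gene, at 0.059, then MINAR1 at 0.15 and the chemokine receptor gene CXCR4 at 0.15. For ANGPT1 they were TMEM204 at 0.053, the immediate early transcription factor gene EGR1 at 0.058 and MAP6, which encodes a microtubule-stabilising protein, at 0.073. For TIE1 they were KAT2B, PSAP and MAGT1, all between 0.0073 and 0.0095, with changes of 0.22, 0.22 and 0.23.

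The pathway partners of the angiopoietins and TIE1 did not pass the test in either direction. Of 24 partner genes listed, 11 were measured, and 0 passed limma at an adjusted p under 0.05 over all genes, where 0.0945% of all genes passed. At an unadjusted p under 0.05 there were also 0 of 11 in limma, against 12.6% of all genes. The median log2 change was -0.07, beside -0.01 over all genes, with 1 partner above 0 and 10 below. That tally was not firm, since 5 of 11 lay above 0 after median centring and 3 to 4 with any 1 array left out, when the median was as small as -0.03 (without SSRP1 siRNA replicate 2). The receptor gene TEK itself was not analysed here, so nothing is shown of the receptor that both ligands bind.

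The single partners given are the 3 of smallest unadjusted p in limma, LECT2, GRB2 and FOXO1, and also ANGPT4. ANGPT4, the third angiopoietin ligand, named after its value was seen, read 4.27 and 4.51 with control siRNA and 4.17 and 4.45 with SSRP1 siRNA, with overlapping groups. LECT2, which encodes a secreted ligand of TIE1, had a log2 change of -0.28 ± 0.14 (SE, limma adjusted p = 0.489). The adaptor gene GRB2 had a log2 change of -0.12 ± 0.11 (SE, limma adjusted p = 0.697). FOXO1, the AKT-restrained factor upstream of ANGPT2, read 3.98 and 3.99 with control siRNA and 3.82 and 3.96 with SSRP1 siRNA, a log2 change of -0.10 ± 0.11 (SE, limma adjusted p = 0.754).

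Genes of the angiopoietin-like family, most of which share the fold of the angiopoietins but which do not bind TIE2, stayed within narrow bounds. Of 8 listed, 5 were measured. In limma 0 passed over all genes and 0 had an unadjusted p under 0.05, beside 0.0945% and 12.6% of all genes. With 5 genes, nothing is read from those counts. The changes of the 5 ran from -0.09 for ANGPTL4, an inhibitor of lipoprotein lipase, to 0.07 for ANGPTL6, and ANGPTL5 had -0.02.

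Among the 9 measured VEGF ligand and receptor genes, the other main family acting on vessels, changes lay on both sides of 0. In limma 0 passed over all genes, and 4 had an unadjusted p under 0.05, 1 higher and 3 lower, beside 6.56% and 6.03% of all genes. The coreceptor genes differed in sign. NRP1 read 6.66 and 6.33 with control siRNA and 7.23 and 6.96 with SSRP1 siRNA, a log2 change of 0.60 ± 0.16 (SE, limma adjusted p = 0.257). NRP2 read 5.61 and 5.42 and then 5.05 and 4.69, a log2 change of -0.64 ± 0.15 (SE, limma adjusted p = 0.219). In neither coreceptor gene did the groups overlap. Higher without overlap, as NRP1 was, were 21.8% of all genes. The share lower without overlap was not counted, and nothing is read from either case. The ligand gene VEGFB had a log2 change of -0.45 ± 0.10 (SE, limma adjusted p = 0.214), and VEGFA, named after its value was seen, one of -0.27 ± 0.11 (SE, limma adjusted p = 0.391). The median of the list was 0.0013, with 5 genes above 0, but -0.06 with 3 above 0 without SSRP1 siRNA replicate 1, and -0.27 with 1 of 5 above 0 among genes at or above the median level.

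Of the genes of transcription factors known from endothelium, 15 had a change above 0 and 6 below. This list and the endothelial marker list were drawn up with earlier results for KLF2 and CALCRL in view, so they are no independent evidence of a direction. Of 26 factors listed, 21 were measured, and 1 of them, KLF2, a factor that endothelial cells make under flow, rose past limma's test, from 5.89 and 5.96 to 7.54 and 7.56, which is 1.62 ± 0.099 (SE) on the log2 scale (limma adjusted p = 0.0267). Like every other gene, KLF2 missed that threshold when any 1 of the 4 arrays was left out. At an unadjusted p under 0.05 in limma there were 9 of 21, all higher, beside 6.56% of all genes. The median log2 change was 0.33, beside -0.01 over all genes, and 0.21 without SSRP1 siRNA replicate 1, where it was smallest.

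ETS factors act on the TIE1 promoter in endothelial cells. Of the 6 ETS genes measured in that list 3 had groups that did not overlap, all higher, beside 21.8% of all genes. These and the further factors of this paragraph were named after their values were seen. FLI1 read 5.22 and 4.66 with control siRNA and 6.62 and 5.95 with SSRP1 siRNA, a log2 change of 1.35 ± 0.28 (SE, limma adjusted p = 0.184). ERG had a log2 change of 0.68 ± 0.16 (SE, limma adjusted p = 0.225) and ETS2 one of 0.69 ± 0.11 (SE, limma adjusted p = 0.127). SOX7, a SOX factor of early endothelium, read 8.36 and 8.07 and then 9.16 and 9.27, a log2 change of 1.01 ± 0.13 (SE, limma adjusted p = 0.103). The other ETS genes, ETS1 (0.48), ELF1 (-0.08) and ETV2 (0.02), had overlapping groups, as did GATA2 (-0.06) and KLF4 (-0.11).

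FOXO target genes, which share a regulator with ANGPT2, did not pass limma's test over all genes (0 of 9 measured), and 3 had an unadjusted p under 0.05, 2 higher and 1 lower, beside 12.6% of all genes in either direction. TP53INP1, a stress-response gene, read 3.17 and 2.92 with control siRNA and 4.03 and 4.40 with SSRP1 siRNA, a log2 change of 1.17 ± 0.16 (SE, limma adjusted p = 0.109). SESN1, a sestrin gene, had a log2 change of 0.50 ± 0.11 (SE, limma adjusted p = 0.193). The repressor gene BCL6 had one of -0.31 ± 0.10 (SE, limma adjusted p = 0.333). The median of the list was 0.02. With 1 array left out that median ranged from 0.0058 without control replicate 2 to 0.12 without control replicate 1. When probe sets of 1 gene were averaged it was 0.13. TXNIP, named after its value was seen, had a change of 0.02, and its other probe set one of 0.65.

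**Figure D3:**
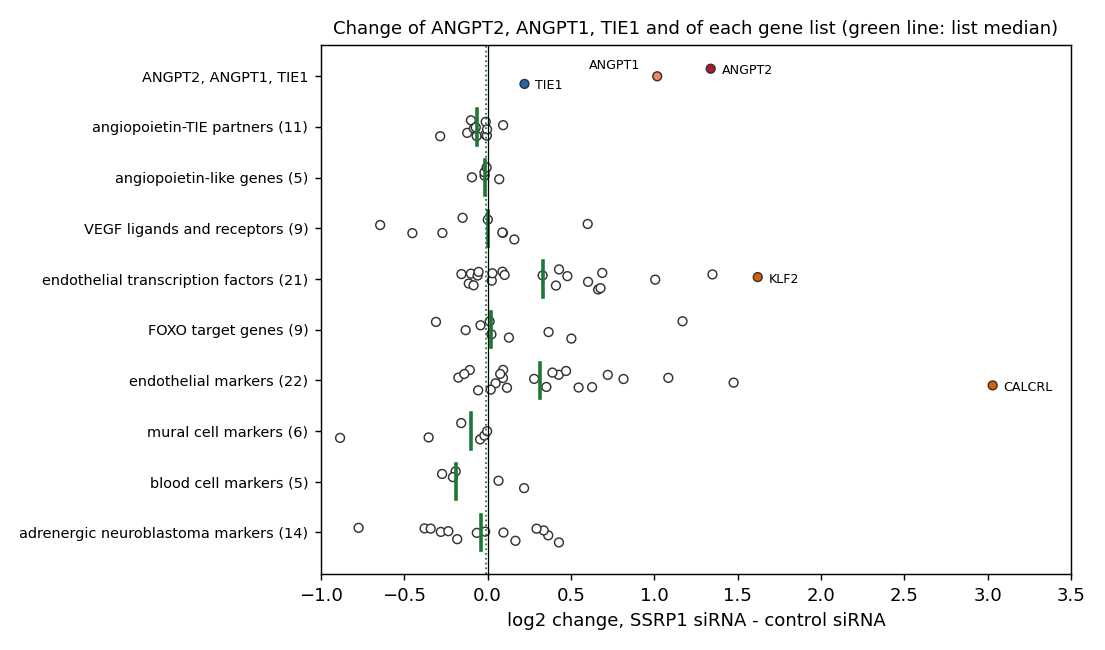
Log2 change (SSRP1 siRNA minus control siRNA) of ANGPT2, ANGPT1 and TIE1 in the top row and of each measured gene of the lists below, with the number measured in brackets; green lines are list medians, the dotted line is the median of all genes, and filled orange points passed limma at an adjusted p under 0.05. ANGPT2, ANGPT1 and TIE1 lie above the range of the 11 partners, -0.28 to 0.09, and nothing is read from that, since this change had picked them. The medians of the endothelial lists are 0.33 and 0.32.

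Marker genes of endothelial, mural and blood cells were set beside these values, as RNA levels in cultures of the BE(2)C line and not as counts of such cells. Of 28 endothelial markers listed, 22 were measured, 18 lay above 0, and 1 passed limma, CALCRL, the receptor gene for adrenomedullin, at 3.03 ± 0.19 (SE, limma adjusted p = 0.0267) on the log2 scale. CALCRL too missed the threshold without any 1 array. In limma 9 had an unadjusted p under 0.05, all higher, beside 6.56% of all genes, with 3 of 22 at that threshold without control replicate 2. The list median was 0.32, and 0.19 without SSRP1 siRNA replicate 1. The summed linear level of the list was 1005 and 907 with control siRNA and 1663 and 1346 with SSRP1 siRNA. Bright probe sets weigh most in such a sum, so it does not speak for the list as a whole. ICAM2, an adhesion gene and among the bright ones at 8.44 and 8.17 with control siRNA, had a log2 change of 0.82 ± 0.14 (SE, limma adjusted p = 0.138). ECSCR, an endothelial surface gene, read 4.23 and 4.36 and then 6.29 and 5.26, a log2 change of 1.48 ± 0.32 (SE, limma adjusted p = 0.200), and its other probe set had a change of 0.92.

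Of the defining endothelial markers, 3 were measured, and their groups overlapped. VWF, the von Willebrand factor gene, read 3.24 and 3.11 with control siRNA and 3.11 and 3.13 with SSRP1 siRNA, a log2 change of -0.06 ± 0.10 (SE, limma adjusted p = 0.871). The tight junction gene CLDN5 had a log2 change of -0.14 ± 0.21 (SE, limma adjusted p = 0.832) and KDR, the main VEGF receptor gene, one of 0.09 ± 0.12 (SE, limma adjusted p = 0.805). PECAM1 and CDH5 were not analysed here. The part of endothelial marker levels in the angiopoietin values was not tested.

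**Figure D4:**
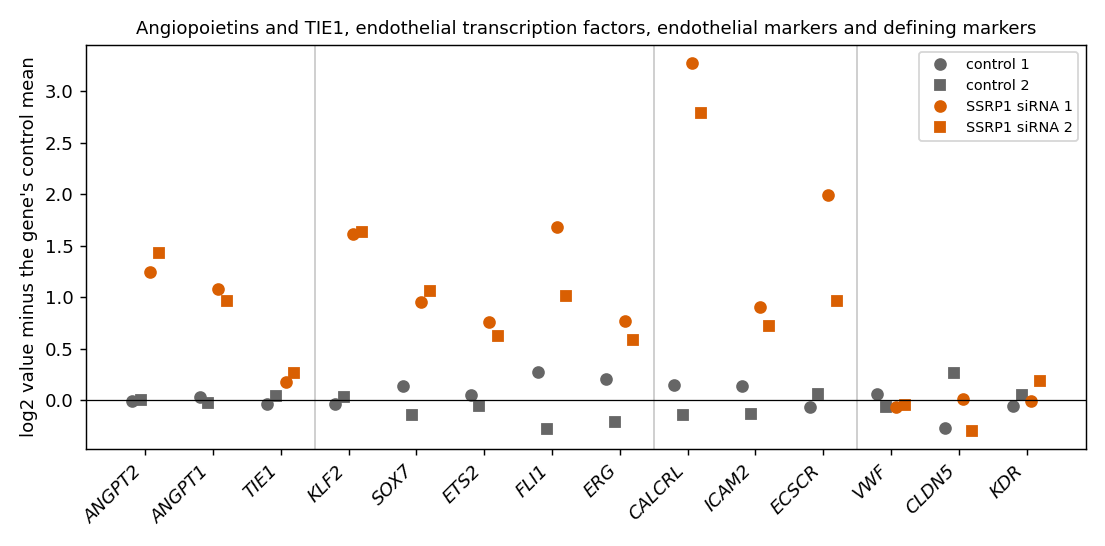
Log2 RMA value minus the gene's own control mean on each of the 4 arrays for ANGPT2, ANGPT1 and TIE1, for 5 endothelial transcription factor genes, for 3 endothelial markers and for the defining markers VWF, CLDN5 and KDR. Both SSRP1 siRNA arrays lie above both controls from ANGPT2 to ECSCR, as they do for 21.8% of all genes, whereas the groups of VWF, CLDN5 and KDR overlap. The 5 factors were picked with their values known, and the 3 markers are those of smallest unadjusted p in limma. Some other members of both lists had overlapping groups.

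Mural cells, the usual source of angiopoietin 1, and blood cells had no marker past the test. Nothing is read from that, since only 0.0945% of all genes passed it. Of 12 mural markers 6 were measured, all with a change below 0, with a median of -0.10 and 0 past limma over all genes, while 2 had an unadjusted p under 0.05, both lower, beside 6.03% of all genes. The median was -0.23 without control replicate 1 and -0.24 without SSRP1 siRNA replicate 2, and 2 of 6 then lay above 0, as they did after median centring. When probe sets of 1 gene were averaged, 1 of 6 lay above 0. DES, named after its value was seen, had a change of -0.04, and its other probe set one of 0.30. The genes below that unadjusted p were MCAM, a cell adhesion gene, with a log2 change of -0.88 ± 0.22 (SE, limma adjusted p = 0.239), and NOTCH3, a Notch receptor gene of vessel walls, with one of -0.35 ± 0.11 (SE, limma adjusted p = 0.321). The proteoglycan gene CSPG4 had a log2 change of -0.16 ± 0.10 (SE, limma adjusted p = 0.588). The summed linear level of the mural list was 219 and 227 with control siRNA and 193 and 199 with SSRP1 siRNA. Of 11 blood cell markers 5 were measured. In limma 0 passed over all genes and 0 had an unadjusted p under 0.05, beside 0.0945% and 12.6% of all genes. The median of the 5 was -0.19 (-0.03 without control replicate 1), with 2 above 0 and 3 below. The markers of smallest unadjusted p in limma had changes of -0.27 for CD2, -0.19 for SPI1 and -0.21 for CD68. The summed linear level of the blood list was 146 and 132 with control siRNA and 126 and 124 with SSRP1 siRNA.

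Adrenergic markers of neuroblastoma were set beside these, of which 14 of 20 were measured. All 14 probe sets were at least as bright as the median gene (4.64), which is a statement on signal and not on amounts of RNA, with a summed linear level of 7371 and 7379 with control siRNA and 7094 and 7180 with SSRP1 siRNA. In limma 0 passed over all genes, and 7 had an unadjusted p under 0.05, 4 higher and 3 lower, beside 6.56% and 6.03% of all genes. DBH, the gene of the enzyme that makes noradrenaline, had a log2 change of -0.77 ± 0.11 (SE, limma adjusted p = 0.111), DDC, for an enzyme earlier in that route, one of 0.43 ± 0.098 (SE, limma adjusted p = 0.214), and HAND2, a sympathetic lineage factor gene, one of -0.38 ± 0.10 (SE, limma adjusted p = 0.263).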

How the data were processed

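The authors deposited log2 RMA values per probe set for 4 Affymetrix Human Gene 2.0 ST arrays, and RMA is named in the submitters' processing notes. Its software, version and genome build were not stated in these sources, and the log2 scale was read from the values. Of 46255 probe sets, 15835 carried 1 symbol in the platform annotation and 30420 were unnamed here. All 15835 gene IDs were in RefSeq (GRCh38.p14). Where a gene had more than 1 probe set (651 genes), that of highest mean was kept.

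Groups came from the sample titles. limma (version 3.58.1 in R 4.3.3; lmFit and eBayes, no trend, not robust, no block) compared SSRP1 siRNA with control siRNA over 14812 genes with Benjamini-Hochberg adjustment and a threshold of 0.05. It had 2 residual and 3.79 prior degrees of freedom and was tested on simulated data. ANGPT1, ANGPT2 and TIE1 and all lists were chosen with earlier results of these data known. Genes named were SSRP1, TEK, RefSeq neighbours, the 3 closest patterns per gene, and per list those past the test or else the 3 of smallest p (always those 3 for marker lists, plus defining endothelial markers); other genes, named after their values were seen, are marked as such. Summed linear levels add 2 to the power of each value, so bright probe sets weigh most in them. Alternatives were the replicate block, other variance priors, normalizations, filters and probe set rules, and each array left out.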

Additional observations from a re-analysis of the deposited data

How the results depend on the processing

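The changes of ANGPT2 (1.25 to 1.43), ANGPT1 (0.96 to 1.08) and TIE1 (0.18 to 0.27) kept their sign under every alternative run, and TIE1 has no value among genes at or above the median level. The 14 genes past limma's test became 6 with the replicate block, 215 with a variance trend, 9 with robust variances, 28 after quantile normalization, 23 after median centring, 179 among genes at or above the median level, and 0 over all probe sets (of which 3854 had an unadjusted p under 0.05). Without any 1 array the count was 0 in limma, with 1200 to 1672 at an unadjusted p under 0.05. SSRP1 stayed at -1.95 but missed the threshold with the replicate block (adjusted p = 0.0569), robust variances (0.0512) and all probe sets (0.144), and ran from -2.17 to -1.72 without 1 array (adjusted p 0.241 to 0.599). Endothelial transcription factors past the test went from 1 to 4 with a variance trend and among genes at or above the median level (SOX7, ETS2 and LYL1 added to KLF2, LYL1 named after its value was seen), and endothelial markers from 1 to 2 in both (ICAM2 added to CALCRL). Both counts were 0 over all probe sets and without any 1 array. FOXO targets went from 0 to 1 with a variance trend (TP53INP1), and adrenergic markers to 3 with a variance trend (DBH, DDC and HAND2) and 1 among genes at or above the median level (DBH). The other list counts stayed at 0. The shared replicate numbers are not stated to mark shared cultures, and the correlation of same-numbered deviations over genes was 0.11. The medians of the angiopoietin-like list (-0.05 to 0.03) and the adrenergic list (-0.14 to 0.06) changed sign between arrays left out.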

Other observations

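The replicate arrays of the SSRP1 siRNA group parted for some endothelial surface genes and not for the angiopoietins; these genes were named after their values were seen. ECSCR read 1.03 higher on the first SSRP1 siRNA array than on the second, ESAM, a junction adhesion gene, 0.98 higher, ACVRL1, a receptor gene for BMP9, 0.83 higher, and SELE, the E-selectin gene, 0.76 higher. On the control arrays the same genes differed by at most 0.13 in size. ANGPT2 was 0.19 lower and ANGPT1 0.12 higher on the first SSRP1 siRNA array than on the second, and the median gap between these arrays over all genes was 0.13 in size.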
